A study of Saccharomyces cerevisiae with 8 samples.

Results

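The bare yeast ribosome, with no drug and no solvent added, was compared before and after exposure to dimethyl sulfate (DMS), at all 5475 nucleotides of its 4 ribosomal RNAs (rRNAs). Every nucleotide in the deposited table was taken, with 3396 from 25S, 1800 from 18S, 158 from 5.8S and 121 from the 5S molecule. Purified 80S ribosomes of *Saccharomyces cerevisiae* were used in both libraries. In the first they carried 0 mM DMS, and in the second 90 mM DMS for 8 min with nothing else. The labels give 8 min for the untreated library too. The series holds 8 libraries. Of the other 6, the library with DMS and the solvent DMSO is set beside the main pair as the only other drug-free library with DMS, and the 5 with DMS and a drug (AglA, agelastatin A, or CHX, cycloheximide) are given only as ranges. The labels name no strain and do not say whether the libraries came from separate ribosome preparations. There was 1 library per condition, so no difference has a replicate check and no test is given. Read depth is unknown, so low rates have no counting interval.

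DMS is a small methylating agent that reaches the Watson-Crick edge of A (at N1) and of C (at N3) when no base pair, protein or tertiary contact covers that edge. It also methylates G at N7, which is not on that edge. A reverse transcriptase that reads through a methylated A or C tends to insert a wrong base, and the share of reads with a mismatch at a nucleotide is its mutation rate. In a folded rRNA the reactive bases are therefore mostly those in loops, bulges and flexible single strands, while helices stay quiet. A nucleotide is called raised here when its rate with DMS was at least 4 times its rate without DMS, after 0.1 percentage points were added to each.

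Some of the nucleotides with large increases are shown first, chosen to cover A and C and all 4 rRNAs, to show which of their neighbours responded. Each line gives 15 nucleotides to either side where the rRNA reaches that far, 5′ to 3′, in lower case, and capitals mark the raised nucleotides.
25S C2638: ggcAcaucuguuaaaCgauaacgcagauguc
18S A1139: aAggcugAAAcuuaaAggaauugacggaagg
25S A692: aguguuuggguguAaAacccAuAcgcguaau
25S A2946: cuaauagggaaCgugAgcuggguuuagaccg
25S A1225: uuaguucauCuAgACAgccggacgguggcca
25S C2284: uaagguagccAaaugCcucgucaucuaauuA
18S C139: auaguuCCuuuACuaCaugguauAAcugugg
5.8S A71: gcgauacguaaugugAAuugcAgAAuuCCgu
5S A42: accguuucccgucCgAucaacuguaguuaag
On the R64 assembly (sacCer3), the line around 25S C2638 corresponds to chrXII:452529-452559, that around 25S A692 to chrXII:454475-454505 and that around 25S A2946 to chrXII:452221-452251, all on the minus strand in RDN25-1. The line around 18S A1139 is chrXII:456579-456609 on the minus strand in RDN18-1, and that around 5S A42 is chrXII:459702-459732 on the plus strand in RDN5-1. These genes are the first annotated copies, and the deposited rates do not separate the repeats of the rDNA.

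C2638 of 25S rRNA was the most reactive base of the ribosome. Its rate was 0.333% without DMS, 77.7% with DMS and 78.7% with DMS and DMSO. A1139 of 18S, the highest of the small subunit, had 0.337%, 64.6% and 64.5% in the same 3 libraries. A692 of 25S had 0.255%, 52.2% and 51.7%. All 3 bases had rates above 50% in both drug-free libraries with DMS and below 0.5% without it. A2946 of 25S, an adenosine that yeast methylates on the ribose, had 0.543% without DMS and 49.3% with it, and A1225 had 0.229% and 38.8%. The 5 drug libraries ran from 75.1% to 78.5% at C2638, from 56.5% to 62.8% at A1139 and from 43.2% to 52.6% at A692, so they overlapped the drug-free values at C2638 and A692 and lay below them at A1139.

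The other adenosines among the 10 highest of 25S were A3245 (36.2% with DMS), A761 (31.8%), A3006 (29.95%), A2401 (27.3%), A366 (22.6%), A2357 (19.9%) and A213 (17.95%). A2401 lies by the peptidyl transferase centre, at the mouth of the tunnel through which the new peptide leaves. None of these had more than 0.203% without DMS. Among cytidines of 25S, C2638 was followed by C2284 (28.1%), C2308 (25.2%), C1219 (17.96%), C2675 (13.5%), C2764 (12.9%), C439 (11.4%), C3181 (10.9%), C593 (9.70%) and C959 (9.21%). C2764 lines the exit site, and its rate in the drug libraries ran from 0.0633% to 13.3%. C439 was the 1 cytidine of this list whose drug-free libraries differed by more than 2-fold, with 4.93% in the DMSO library.

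In 18S, A1139 stood far above the next adenosines, which were A1681 (20.5%), A515 (18.6%), A1712 (16.9%), A970 (14.6%), A352 (12.3%), A1116 (12.1%), A198 (9.94%), A1227 (9.37%) and A1360 (8.87%). C139 (24.4%) and C1246 (16.8%) led the cytidines. The third, C741, had 4.93%, so cytidines above 5% were rare in the small subunit. The other 7 of the top 10 ran from C25 (4.91%) down to C469 (2.97%), through C1490, C455, C495, C1700 and C1274. The DMSO library had 28.2% at C139 and 17.8% at C1246, both slightly higher than with no addition.

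Adenosines made up most of the open bases, and cytidines nearly all the rest. Over all bases, 551 of 5475 nucleotides (10.1%) were raised and 0 were lowered by the same 4-fold rule. The 0 is no result for most nucleotides. With 0.1 percentage points added, a rate near the median without DMS (0.0467%) cannot be called lowered. Without a fold, 463 nucleotides had a lower rate with DMS. Of the raised nucleotides, 404 (73.3%) were A, 123 (22.3%) were C, 17 (3.09%) were G and 7 (1.27%) were U. Expressed per base, 27.8% of the 1453 A, 11.4% of the 1076 C, 1.14% of the 1495 G and 0.482% of the 1451 U were raised. With the DMSO library in place of no addition the counts were 395, 121, 15 and 9 (9.86% of all nucleotides). Both counts use the same untreated library.

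Reactivity was graded, without a gap between open and closed adenosines. The quartiles of the rate with DMS over all A were 0.106%, 0.188% and 0.591%, against 0.0283%, 0.0360% and 0.0489% without DMS, so nearly the whole distribution of A lay higher. In all, 1435 of the 1453 A had a higher rate with DMS. So did 1433 of the 1495 G, 915 of the 1076 C and 1206 of the 1451 U, so a higher rate alone did not set A apart. For C the upper quartile went from 0.0899% to 0.208% while the lower quartile went from 0.0453% to 0.0612%, so most cytidines differed little and a minority differed much. Among raised bases, cytidines had the higher median rate, 2.32% against 1.44% for A. The rule asks more of C, whose median rate without DMS was 0.0594% against 0.0360% for A. Over all bases, raised or not, the median with DMS was lower for C (0.0939%) than for A (0.188%). An increase of at least 10 percentage points was seen at 25 A and 10 C, and of at least 20 points at 10 A and 4 C. The summed increase was concentrated, since 49 of the 527 raised A and C held 50% of it. G and U had no nucleotide with an increase of 5 points.

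**Figure D1:**
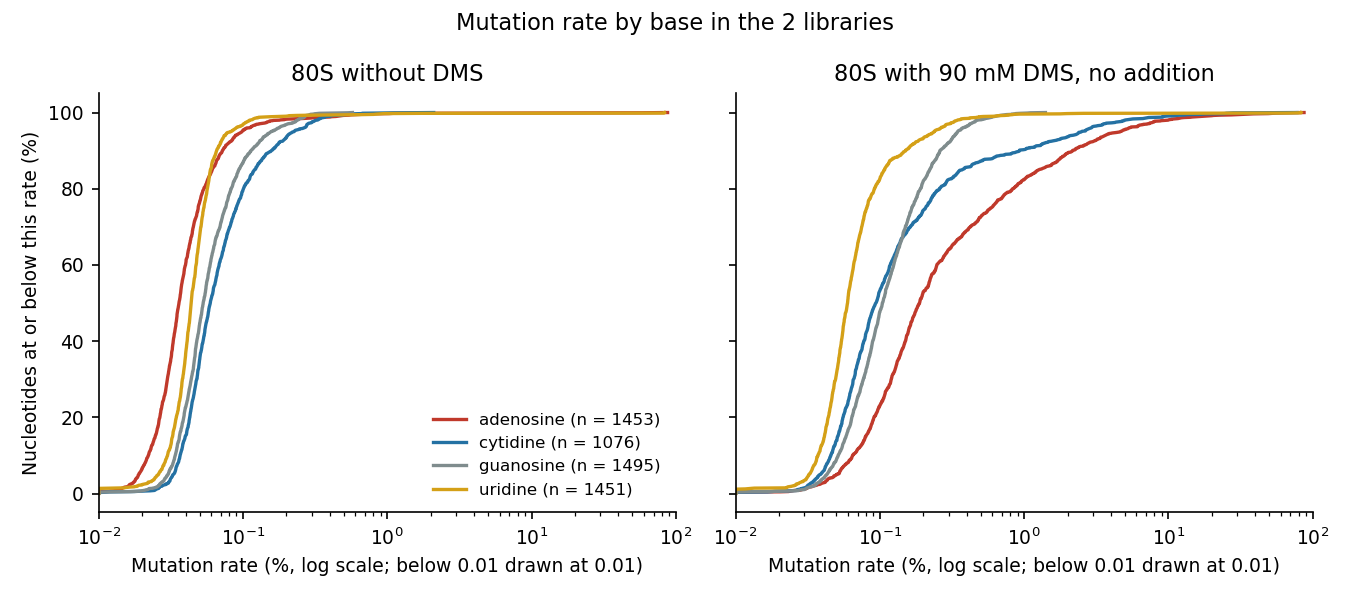
Cumulative share of nucleotides (%, vertical) at or below each mutation rate (%, log scale, horizontal), by base, without DMS (left) and with 90 mM DMS and no addition (right). Without DMS the 4 curves lie close together with medians from 0.0360% (A) to 0.0594% (C), and with DMS the A curve and the upper part of the C curve move to higher rates.

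The 2 drug-free libraries with DMS give the only gauge of how far single rates move between libraries. Among A with a mean rate of at least 0.5% in these libraries (396 nucleotides), the log2 ratio of DMSO to no addition had a median of -0.038 and a standard deviation of 0.20, and 95% lay within 1.33-fold. For the 137 such C the median was 0.056 and 95% lay within 1.28-fold. These libraries differ in solvent and are not replicates of each other.

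The small subunit RNA had the larger share of open adenosines. Of the 483 A of 18S, 159 (32.9%) were raised, against 230 of the 899 of 25S (25.6%). The 5.8S molecule had 10 of 41 (24.4%) and the 5S molecule 5 of 30 (16.7%). The large subunit held the more extreme ones, with 41 A of 25S (but 19 of 18S) gaining at least 5 points. The median rate of raised A was 1.66% for 25S and 1.173% for 18S. For C the small subunit had 43 of 348 raised (12.4%) and 25S had 71 of 662 (10.7%). The smaller molecules had 6 of 36 (16.7%, 5.8S) and 3 of 30 (10%, 5S). Only 2 C of 18S gained at least 5 points, against 18 of 25S. The order of 18S above 25S for A also held with the DMSO library (32.1% and 25.1%). With 0.01 added to the rates the shares came together, at 7.04% (34 of 483) and 7.01% (63 of 899).

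**Figure D2:**
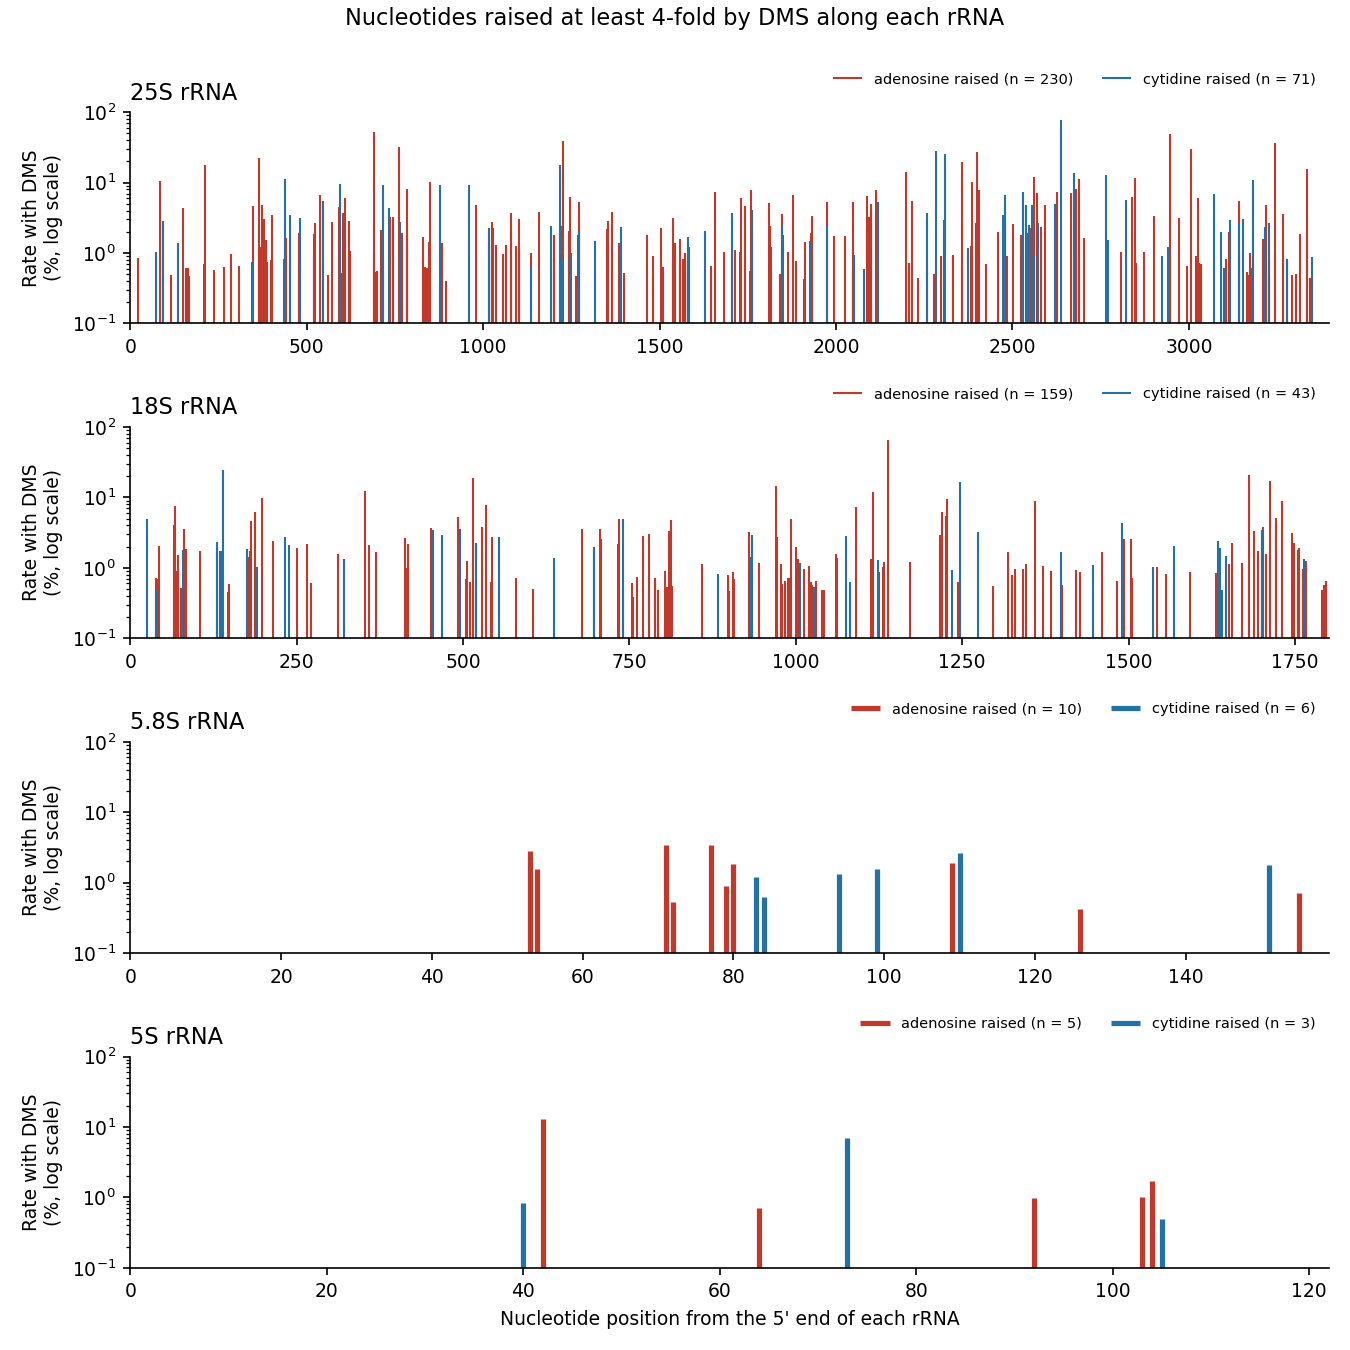
Each vertical line is a raised adenosine (red) or cytidine (blue), at its position from the 5′ end of the rRNA (horizontal, nucleotides) and up to its rate with 90 mM DMS (vertical, %, log scale). Raised bases lie along the whole of 25S and 18S, with the tallest lines at C2638 of 25S (77.7%) and A1139 of 18S (64.6%), while 5.8S has none before position 53.

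Along the 2 long rRNAs, open adenosines were unevenly spread. In 51 windows of 100 nucleotides, the share of A that was raised ran from 3.57% to 57.6%, with a median of 29.0%. The highest share was in the last window of 18S, nucleotides 1701 to 1800, where 19 of 33 A were raised (57.6%). This window holds the end of helix 44, the long helix on the face of the small subunit, and the decoding adenosines. It was followed by 2001 to 2100 of 25S (9 of 16, 56.3%) and 1001 to 1100 of 18S (14 of 27, 51.9%). The DMSO library gave 19, 9 and 16 in the same windows. The lowest shares were all in 25S, with 1 of 28 in 901 to 1000 (3.57%), 1 of 26 in 2701 to 2800 (3.85%) and 2 of 35 in 1 to 100 (5.71%), where the DMSO library gave 2, 1 and 2. The first 100 nucleotides of 25S include sequence that pairs with 5.8S rRNA. Across windows the share for A had a Pearson correlation of 0.22 with that for C and of 0.036 with the G+C content, given as a description of windows from the same 2 libraries.

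**Figure D3:**
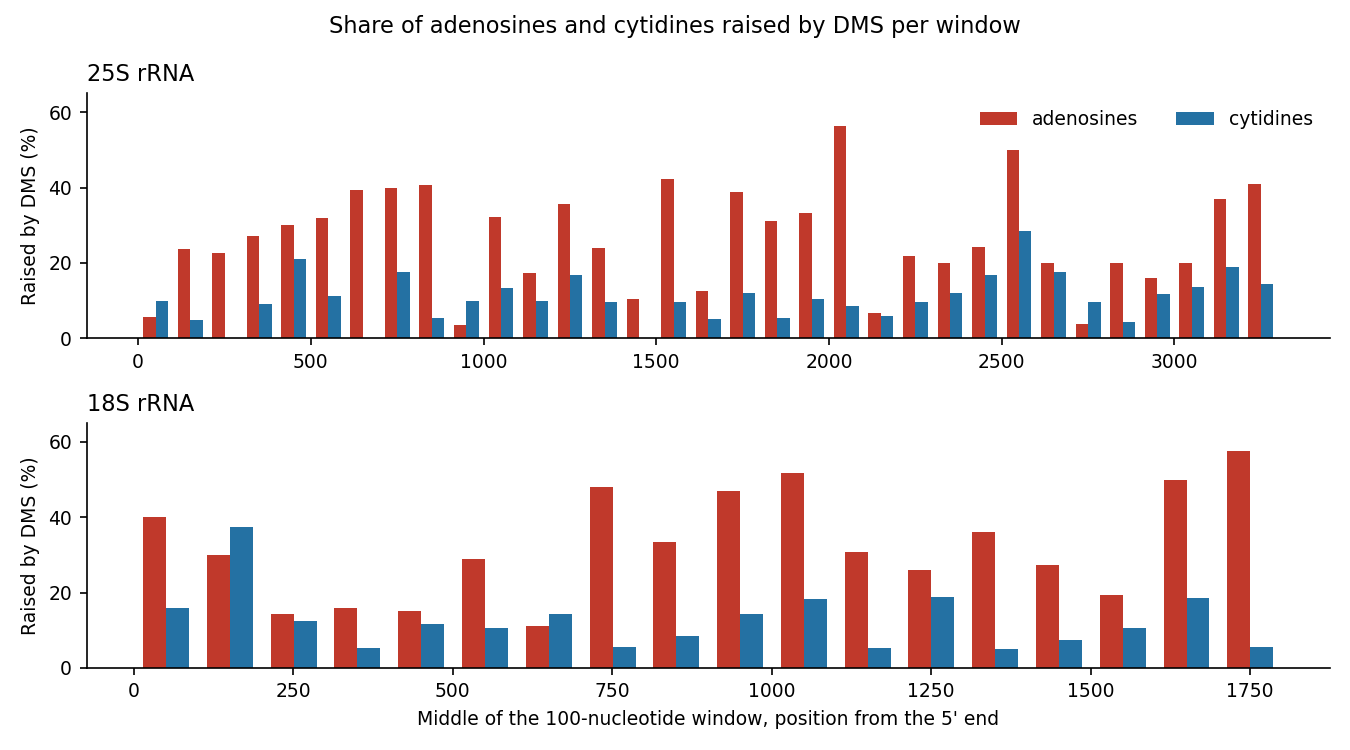
Share of adenosines (red bars) and of cytidines (blue bars) raised by DMS (%, vertical) in each full window of 100 nucleotides along 25S (top) and 18S (bottom), by the middle of the window (horizontal). The adenosine share runs from 3.57% to 57.6%, and the low windows of 25S at 901 to 1000 and 2701 to 2800 lie among higher ones.

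Most runs of open bases were short, though many open bases had an open neighbour. The 551 raised nucleotides fell into 415 runs, of which 315 (75.9% of the runs) were single nucleotides and 28 were 3 or longer. Thus 315 of the 551 stood alone, and the rest lay directly beside another raised nucleotide. The longest run made only of A and C was 1762 to 1766 of 18S, with 4 A and 1 C at 0.848% to 1.32% with DMS and at most 0.0592% without. It lies just 3′ of the decoding adenosines, in the strand that is printed with them below. Runs of 4 made only of A and C were found at 1270 to 1273 and 1580 to 1583 of 25S and at 38 to 41 of 18S. Their highest rates were 5.29%, 1.70% and 0.725%. Runs that hold a raised G or U are not listed, such as the one with G437 and C439 of 25S (0.754% and 11.4%). Adenosines next to each other tended to be raised together. Of 127 A followed by a raised A, 78 (61.4%) were themselves raised, against 48 of 322 (14.9%) of those followed by an A that was not.

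The longest stretch without a raised base was 79 nucleotides, 2119 to 2197 of 25S, shown here because it holds 24 A and 13 C with a median rate of only 0.0965% with DMS.
25S 2119-2197: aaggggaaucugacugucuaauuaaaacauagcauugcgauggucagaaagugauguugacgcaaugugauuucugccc
It contains A2142, an adenosine that yeast methylates at N1, which had 56.1% without DMS and 56.02% with it. The stretches next in length were 623 to 689 (67 nucleotides, with the other N1-methylated adenosine, A645), 896 to 958 (63) and 2703 to 2763 (61) of 25S and 1 to 52 of 5.8S (52). In the last, all 16 A and 13 C stayed at or below 0.476% with DMS.

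The share of raised adenosines was alike whatever base stood beside them, while that of cytidines was not. By the 5′ neighbour, 28.3% of A after A, 28.8% after C, 28.4% after G and 25.6% after U were raised. By the 3′ neighbour the shares ran from 27.0% (before C) to 28.2% (before U). Cytidines were raised in 16.8% of cases after A and 14.2% after U, but in 5.96% after C and 8.45% after G. Before C only 6.81% were raised, against 14.8% before A and 14.0% before G.

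Predicted pairing from sequence alone separated open from closed cytidines more than adenosines. RNAplfold gave each nucleotide a probability of being unpaired within local folds. Of cytidines predicted unpaired with a probability of at least 0.75, 42 of 119 (35.3%) were raised, but of those under 0.25, 27 of 575 (4.70%). For adenosines the shares were 222 of 628 (35.4%) and 50 of 287 (17.4%). The rank correlation between this probability and the increase with DMS was 0.38 for C and 0.17 for A. The prediction knows nothing of proteins, tertiary contacts or pairs across long distances, and the shares are a description over sites of 2 libraries.

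Hairpins found from the letters gave the same contrast between A and C. A search for at least 6 successive pairs closing a loop of 3 to 9 nucleotides found 32 hairpins, 22 in 25S, 9 in 18S and 1 in 5.8S. A match of letters is not a known structure. In the loops 30 of 72 A (41.7%) and 8 of 29 C (27.6%) were raised. In the stems only 3 of 103 C (2.91%) were raised, against 11.4% of all C. For A the stems were not nearly as quiet, with 21 of 91 raised (23.1%), close to the 27.8% of all A. Medians with DMS were 0.365% for loop A, 0.136% for stem A, 0.192% for loop C and 0.0755% for stem C. With stems of at least 7 pairs the A counts were 15 of 30 in loops (50%) and 17 of 49 in stems (34.7%), the latter above the share of all A. Of the 24 raised A and C in stems, 8 lay in 2 matches of 18S. They were at 63 to 79 (5 of 6 stem A and C raised, up to 7.58%) and at 133 to 157 (3 of 7, up to 24.4% at C139).

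A separate search was made for loops of the GNRA family, named for G, any base, A or G, and A. In such a loop the first G and the last A form a sheared pair and the bases in the middle stack with their Watson-Crick edges outward. With a closing stem of at least 5 pairs there were 3, shown with their stems and with capitals for the raised bases.
25S 728-741: gccucgCAAgaggu
25S 838-855: gccAgAggAAAcucuggu
5.8S 63-76: guaaugugAAuugc
All 6 A and the 1 C of these loops were raised, beside 27.8% of all A and 11.4% of all C. In the first loop C734, A735 and A736 had 4.33%, 2.28% and 3.20%, against at most 0.0961% without DMS, while G733 had 0.293%. In the second A846, A847 and A848 had 1.45%, 0.821% and 10.1%, so the last A, the partner of the G, had the highest rate of the loop. A847 had 0.385% in the DMSO library, which is below the 4-fold rule. In 5.8S A71, the last base of the matched letters, had 3.38%. RNAplfold gave G68, U69 and G70 of this match unpaired probabilities of only 0.030, 0.033 and 0.023, and A71 0.88. The 5.8S match may therefore not form this loop. With closing stems of at least 4 pairs 11 loops were found, and 14 of their 22 A were raised (63.6%, beside 27.8% of all A). At the last position 7 of 11 A were raised, and the rates of all 11 ran from 0.0879% to 10.1% with a median of 0.742%. The G at the first position was raised in none of the 11. Loops of the same family of letters thus differed widely.

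Sites where the ribosome works were located by short runs of letters, each found once in its rRNA, and are shown with capitals for the raised bases. These lists of sites came from memory.
18S decoding strand, 1745-1776: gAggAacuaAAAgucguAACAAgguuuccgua
18S 530 loop, 561-592: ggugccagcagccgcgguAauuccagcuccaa
25S helix 69, 2243-2274: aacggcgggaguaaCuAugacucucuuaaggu
25S peptidyl transferase strand, 2804-2835: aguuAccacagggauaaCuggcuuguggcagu
25S sarcin-ricin loop, 3011-3042: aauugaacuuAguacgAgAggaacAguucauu
Both decoding adenosines of helix 44, which flip out to inspect the codon-anticodon pair, were raised. A1755 had 0.0335% without DMS and 1.77% with it, and A1756 had 0.0931% and 1.92%. In the 530 loop, the part of the small subunit that closes on the same codon, A579 was raised (0.02001% and 0.723%) while its neighbour A580 stayed at the background (0.0208% and 0.0233%). In helix 69, which bridges the subunits beside the decoding centre, C2257 went from 0.0974% to 3.67% and A2259 from 0.0205% to 0.579%. A2259 had 0.313% in the DMSO library, which is below the 4-fold rule. A2256, which yeast methylates on the ribose, had 0.716% and 2.37%, a 3.31-fold difference that falls short of the rule.

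In the catalytic strand of the large subunit, 1 of the 5 A and C from 2814 to 2825 was raised (20%, beside 20.8% of all 2529 A and C). It was C2821, with 0.0921% without DMS, 5.68% with DMS and 5.87% with DMSO. In the drug libraries it ran from 0.180% to 4.23%. C2821, A2820 (0.0349% and 0.337%) and A2819 (0.0228% and 0.104%) lie in the peptidyl transferase centre, where the peptide bond is made. The sarcin-ricin loop, the contact of the elongation factors, had a sharp maximum at A3027, whose adenine is removed by the toxin ricin. Its rate was 0.0754% without and 6.11% with DMS. In the same loop A3029 had 0.732%, A3021 had 0.916%, A3032 had 0.206% and A3024 had 0.258%, so A3027 stood well above every other adenosine of the loop. In 18S the adjacent dimethyladenosines of helix 45 were not raised. A1781 had 0.558% and 0.611%, and A1782 had 11.0% and 10.5%.

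The small RNAs of the large subunit had raised bases too. The median rate of raised A in 5.8S was 1.69%, beside 1.66% in 25S, but none of its nucleotides passed 3.39%. In 5.8S the highest A were A71 (3.38%), A77 (3.39%) and A53 (2.83%), and the highest C were C110 (2.67%), C99 (1.58%) and C151 (1.81%, against 0.310% without DMS). In 5S, which sits in the central protuberance, A42 had 0.129% without DMS, 12.9% with it and 14.2% with DMSO, and C73 had 0.136%, 6.999% and 7.46%. These 2 bases stood well above the next ones, A104 (1.71%), A103 (1.011%), C40 (0.822%) and C105 (0.496%).

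Without DMS most nucleotides had a low rate, which differed by base. The median rate was 0.0360% for A, 0.0437% for U, 0.0530% for G and 0.0594% for C. At least 0.1% was reached by 219 of the 1076 C and 196 of the 1495 G, but by 69 of the 1453 A and 46 of the 1451 U. Of all nucleotides, 29 reached 0.5%, comprising 11 A, 9 U, 7 C and 2 G, and 24 of these 29 differed by less than 1.5-fold between the libraries. The highest were bases that yeast itself methylates on the Watson-Crick edge, A645 (87.6%), U2634 (83.5%), U2843 (82.9%) and A2142 (56.1%) of 25S and the hypermodified U1191 of 18S (82.8%). Below these, many were nucleotides known as ribose methylation sites of yeast, named from memory after their values were seen. U578 and U1269 of 18S had 1.74% and 0.805%, and U2417, U2921, U2729 and U1888 of 25S had 0.953%, 0.882%, 0.834% and 0.652%. Among adenosines A1133 of 25S had 1.10% and A619 of 18S 1.03%, which became 1.09% and 1.05% with DMS. The highest cytidines were C969 of 25S (2.10%, and 2.19% with DMS), the acetylated C1773 and C1280 of 18S (1.04% and 0.674%), C453 of 25S (0.660%) and C1033 of 18S (0.541%). The highest guanosines were G1575 of 18S (0.574%), which carries a methyl group at N7, then G2624, G104 and G1906 of 25S and G434 of 18S (0.530%, 0.420%, 0.339% and 0.323%). Of the 29, 3 were raised by DMS (10.3%, beside 10.1% of all nucleotides), namely A2946, C2284 and C453 of 25S (3.48% with DMS).

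**Figure D4:**
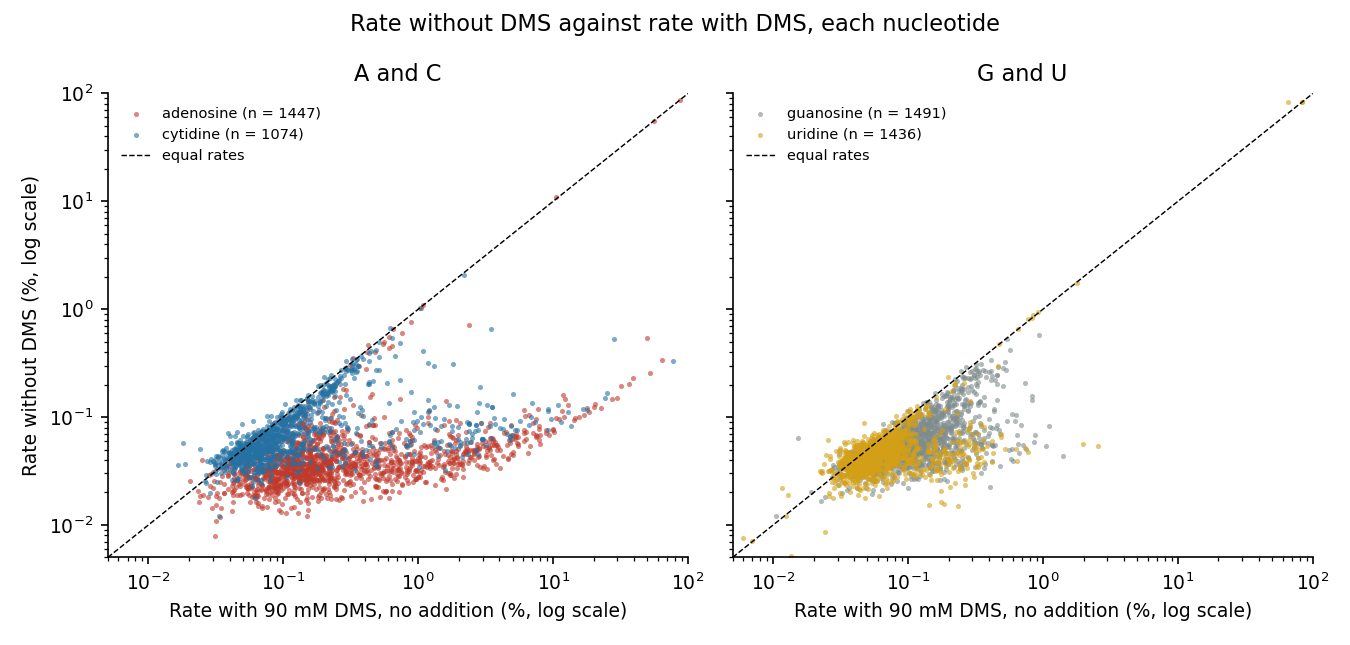
Each point is a nucleotide with a rate above 0 in both libraries, by its rate with 90 mM DMS (horizontal, %, log scale) and without DMS (vertical, %, log scale), for A and C (left) and G and U (right). The naturally modified bases with the highest rates lie on or near the dashed line of equal rates, U2634 (83.5% and 66.1%) above it, and among adenosines the rate without DMS climbs with the rate with DMS, from a median of 0.0376% at 0.3% to 1% with DMS to 0.198% above 20%.

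The background of adenosines was higher the more reactive they were with DMS. The median rate without DMS was 0.0376% for the 265 A with 0.3% to 1% with DMS, 0.0459% for the 189 with 1% to 5%, 0.0676% for the 36 with 5% to 10%, 0.102% for the 16 with 10% to 20% and 0.198% for the 10 above 20%. For C the medians over the same ranges did not climb steadily, at 0.113%, 0.0762%, 0.0943%, 0.114% and 0.250%. Natural modifications at 5% or more without DMS were left out. Among the 61 A that gained at least 5 points, a straight line through the rates without DMS had a slope of 0.0054 per unit of rate with DMS and an intercept of 0.034%, close to the median background of A. Pearson's correlation over these 61 sites was 0.87 and Spearman's 0.80, given as a description. For the 21 C that gained at least 5 points the slope was 0.0043 and the correlations were 0.65 and 0.67. The fold between the libraries did not pass 205 for any such A (A692) or 234 for any such C (C2638). No column gives read counts or read identity, and the source of this signal was not tested.

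Around C2638 of 25S, 5 of the 20 nucleotides within 10 had a lower rate with DMS than without (25%), and the others a higher one. Over all rRNAs 463 of 5475 nucleotides were lower (8.46%). The 5 were U2631, G2632, U2634, G2639 and U2641, and all but U2634 were below 0.1% in both libraries. U2634, the N3-methylated uridine 4 nucleotides upstream, went from 83.5% without DMS to 66.1% with it, 65.01% with DMSO and 63.5% to 66.7% in the drug libraries. Its rate fell by 17.4 points, the most of any nucleotide, and that of A645, the next, fell by 0.594 points. Other naturally modified bases with high rates moved little, such as U2843 (82.9% in both) and U1191 of 18S (82.8% and 83.1%). Near C2638, G2639 had 0.0634% without and 0.0152% with DMS (0.0307% with DMSO), and U2631 had 0.0874% and 0.0472%. Over the 14 nucleotides that gained at least 20 points, the G and U within 2 to 5 nucleotides on the 3′ side had a median ratio of 1.16 with DMS to without, against 1.49 for all G and U. Of these 30 nucleotides 7 were below 1 (23.3%), U2641 among them, beside 290 of all 2925 G and U (9.91%). Neither this share nor that around C2638 was matched for the mix of bases. The bases differ, since 1433 of the 1495 G but 1206 of the 1451 U were higher with DMS. At 2 to 5 nucleotides on the 5′ side the median ratio was 1.54, with 3 of 25 below 1. At 6 to 10 nucleotides it was 1.48 on the 5′ side (5 of 42 below 1) and 1.64 on the 3′ side (3 of 40). Directly beside the 14 nucleotides it was 1.16 on the 5′ side (1 of 6) and 1.14 on the 3′ side (2 of 8). The cause of the lower rates was not tested.

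**Figure D5:**
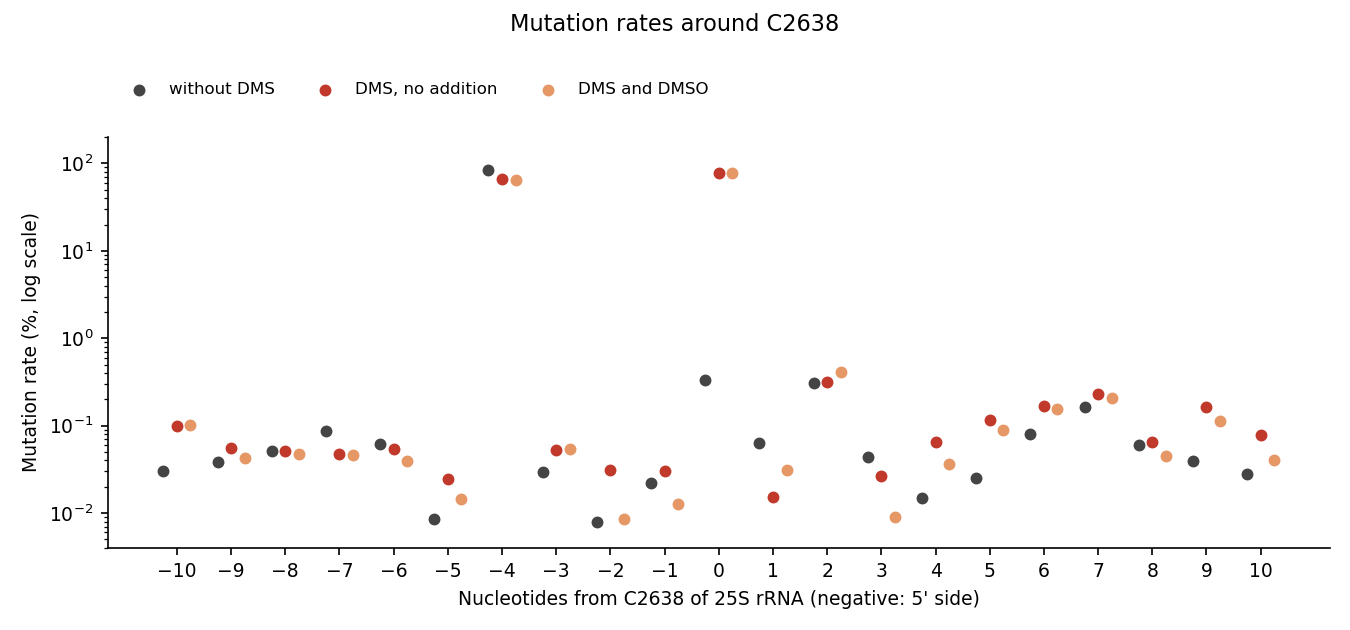
Mutation rate (%, log scale, vertical) of each nucleotide from 10 before to 10 after C2638 of 25S (horizontal), without DMS (grey), with DMS and no addition (red) and with DMS and DMSO (orange). C2638 goes from 0.333% to 77.7%, U2634 at -4 goes from 83.5% to 66.1%, and all other nucleotides shown stay below 0.5%.

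Few guanosines and uridines responded to DMS, and at low rates. The highest were U558 of 18S, with 0.0539% without DMS, 2.57% with DMS and 2.28% with DMSO, and U3275 of 25S, with 0.0567%, 1.97% and 1.56%. U762 of 25S (0.775%) follows A761, which had 31.8%, while U280 and U808 of 18S had 0.732% and 0.639%. Among G, G3369 of 25S (0.0436% and 1.40%), G1521 (1.10%), G800 (1.05%) and G1421 (0.861%) of 25S and G1521 of 18S (0.874%) led. Of the 24 raised G and U, 8 (33.3%) had a raised nucleotide directly beside them, against 523 of all 2946 G and U (17.8%). At U558 both neighbours stayed below 0.1%, with 0.0596% at the G before it and 0.0609% at the C after it. Taken as a group, raised or not, guanosines were a little higher with DMS. The median ratio was 1.73 for G, against 1.30 for U, 1.34 for C and 5.16 for A, over nucleotides under 10% without DMS. The difference was smaller in the DMSO library. The median rate of G was 0.0530% without DMS, 0.104% with DMS and 0.0818% with DMS and DMSO. For U these medians were 0.0437%, 0.0597% and 0.0522%.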

How the data were processed

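The authors deposited 1 table of mutation rates, a fraction of reads with a mismatch per nucleotide and library, printed here as percent. Per the labels' protocols, rRNA of DMS-treated ribosomes was fragmented, size-selected, copied with TGIRT-III, and full-length cDNA was kept, circularised and amplified. Cutadapt, Bowtie2 and sacCer3 are listed in the submitters' processing notes, without versions or roles. Mismatch filters and any depth minimum: not given in the sources used here. Libraries were assigned by title. The table's T is written as U. The 23 nucleotides listed at 0 in both libraries lie within 4 nucleotides of an rRNA end.

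With 1 library a side no test was run. The rule for raised nucleotides was (rate with DMS + 0.001) at least 4 times (rate without DMS + 0.001), in fractions. Hairpins needed at least 6 pairs, at most 1 of them G-U, and of overlapping matches that with most pairs was kept. RNAplfold 2.7.2 used a window of 150 and a span of 100. Scripts used Python 3.11.15, numpy 2.4.6, pandas 2.3.3 and matplotlib 3.10.9, and the rule and the hairpin search were checked on simulated data. Genome positions come from RefSeq gene coordinates of R64. No genome was used, so letters are those of the deposited table.

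Nucleotides named were the highest of each base and rRNA by increase, the highest without DMS, the most lowered, the extreme windows, runs and stretches, tetraloops and landmark sites. Members, lists and rules were chosen with earlier results of these data known. Nucleotides outside this rule, such as further ribose methylation sites, were named after their values were seen. The planned overlap with the DMSO library is not given, since both lists share the untreated library. Alternatives were other constants and folds, a rule on the difference, the DMSO library, a filter on ends and zeros, and other stem lengths.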

Additional observations from a re-analysis of the deposited data

How the results depend on the processing

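The counts depended on the rule far more than on which drug-free library with DMS was used. The untreated library was the same throughout, so dependence on it could not be examined. Of 83 recomputed counts, 39 stayed within 1.5 times the reported value. With the DMSO library, or with an increase of at least 0.5 percentage points as the rule, every count did. With nucleotides near ends or at 0 left out, the 1 count that moved was that of A in 5S (3 in place of 5). Adding 0.0001 gave 746 A, 98 G and 83 U raised, with A in 25S, 18S, 5.8S and 5S at 445, 268, 22 and 11, and stem and loop A at 34 and 50. Adding 0.01 gave 100 A, 36 C, 0 G and 0 U, with A by rRNA at 63, 34, 2 and 1, stem and loop A at 4 and 5, and tetraloop A at 3. A 2-fold rule gave 737 A, 133 G and 92 U, with A by rRNA at 437, 268, 21 and 11, and stem and loop A at 36 and 52. A 10-fold rule gave 206 A, 78 C, 1 G and 2 U, with A by rRNA at 126, 72, 6 and 2, and stem and loop A at 9 and 17. Stems of at least 7 pairs left 15 raised loop A, and closing stems of 4 pairs gave 14 tetraloop A. Rates of at least 0.1% or 2% without DMS were found at 530 or 7 nucleotides in place of 29. Another constant cannot change the direction of a difference, only whether it passes the rule. With 0.01 added some named nucleotides no longer passed it, such as A1755, A1756 and U558 of 18S (log2 ratios of 1.42, 1.42 and 1.76). With the DMSO library A847 and A2259 of 25S fell below the rule, and no named nucleotide that was raised changed direction. These alternatives were chosen after the data were seen. Read depth is unknown, so precision at low rates cannot be stated. No paired analysis was possible because each condition has 1 library and the labels carry no replicate numbers.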
